A study of Homo sapiens with 2 samples.

Results

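The hnRNP and SR splicing factors are RNA-binding proteins that decide which exons of a pre-mRNA are joined, and they were examined here with the U2 snRNP proteins and protein kinases that work beside them. Members were the protein-coding genes of the deposited table whose symbols match the HNRNP, SRSF, SF3A, SF3B, U2AF, TRA2, CLK or SRPK names, or RBMX (a rule on names, not on values, set with earlier results of these data known). This gave 56 genes of 30856 in the table, of which 53 reached 1 FPKM (fragments scaled to transcript length and library size) in at least 1 library and are called expressed below, among 11388 such genes with a symbol. THP-1 is a human monocytic leukaemia cell line with a KMT2A fusion, and poly(A) RNA was sequenced once from untreated parental cells and once from THP-1 cells selected for resistance to cytarabine (Ara-C). Ara-C, a nucleoside analogue used against acute myeloid leukaemia, was raised stepwise from 5 nM to 10 µM, and cells were called resistant when they doubled as fast as untreated cells. The labels do not say whether the drug was present at harvest or whether the resistant line is a clone. With 1 library per group there is no replicate check and no test, so every difference below compares these 2 libraries only. Levels are those of bulk RNA, in which fewer cells of a type and less RNA per cell cannot be told apart.

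SR proteins carry RNA recognition motifs and a tail rich in arginine and serine, and mostly promote the use of exons they bind. The hnRNP proteins coat nascent transcripts and often oppose them, so the balance of both groups sets many alternative exons. U2AF and the SF3A and SF3B complexes recognise the end of the intron and its branch point, while SRPK and CLK kinases phosphorylate the SR tails and control where SR proteins reside and when they act. SF3B1, SRSF2 and U2AF1 are recurrently mutated in myeloid neoplasms; mutations and isoforms were not analysed here, since the table holds 1 value per gene and library.

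Some members have close copies in the annotation, and their sequences show why gene counts cannot always be told apart. U2AF1 has an annotated copy, U2AF1L5, on the same chromosome, and HNRNPA1 has an intronless relative, HNRNPA1L2. Whether U2AF1L5 is a separate gene in these cells was not tested. The lines give the same 60 coding bases of each gene (GENCODE transcripts, GRCh38), with bases that differ within a pair in capitals.

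HNRNPA1 (chr12:54282578-54282637, plus strand): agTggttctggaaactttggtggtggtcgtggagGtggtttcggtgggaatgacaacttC

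HNRNPA1L2 (chr13:52643081-52643140, plus strand): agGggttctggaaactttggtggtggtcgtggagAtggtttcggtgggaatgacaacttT

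U2AF1 (chr21:43104342-43104401, minus strand): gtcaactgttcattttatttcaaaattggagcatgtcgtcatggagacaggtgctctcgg

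U2AF1L5 (chr21:6496020-6496079, minus strand): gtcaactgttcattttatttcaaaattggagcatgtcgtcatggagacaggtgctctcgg

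The U2AF1 pair had 0 differences over 720 coding bases. The HNRNPA1 pair had 15 over 960 (98.4% identity), 3 of them in the stretch shown: T591G, G623A and C648T, counted from the first base of the start codon, HNRNPA1 first. Of all 150-base windows, the read length, of the longest coding transcript, 80.7% of U2AF1 occurred unchanged in U2AF1L5, 53.8% of SRSF1 in an overlapping unnamed gene, 44.1% of HNRNPUL2 in the read-through gene HNRNPUL2-BSCL2, and 22.2% of HNRNPA1 in 5 other genes. For 41 of the 53 expressed members no window was shared with another gene. Only 23 of the 56 members have the same span in the GENCODE annotation used here as in the deposited table. The shares therefore describe that annotation and may differ for the table's counts.

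The depth was 57434972 counts for parental and 58285463 for resistant cells, with mitochondrial transcripts at 5.96% and 5.92%. Of 12 myeloid markers fixed for the check, 11 reached 1 FPKM, with 8 below 0 (3 by 1.5-fold or more) and 3 above (2 by 1.2-fold or more). The lineage factors SPI1 (64.4 parental and 62.3 resistant FPKM) and CEBPA (139 and 141) were present, and the monocyte marker CD14 was at 0.50 and 0.03 FPKM. The summed myeloid list was 552 FPKM in parental and 430 in resistant cells, mostly through LYZ (225 and 95.8). MPO was at 2.81 and 0.94, CSF1R at 12.2 and 7.74, and FCGR1A, the highest by log2 ratio, at 29.6 and 41.2; the part of this in the splicing factor levels was not tested. Of 7 measured markers of other cell types, PECAM1, which monocytic cells also express, was at 28.2 and 23.7 FPKM and the others were under 1.

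The splicing factor genes stood at close to the same levels in both libraries. No member was 1.5-fold apart in either direction, while of all expressed genes 2.93% were past this rule with the resistant library higher and 4.77% with it lower. By the finer rule of 1.2-fold, 0 members were higher (12.8% of expressed genes) and 4 of 53 were lower (17.0% of expressed genes): SRPK2, SRSF3, SRSF8 and HNRNPA2B1. These rules use log2((resistant FPKM + 1)/(parental FPKM + 1)), called the log2 ratio below, whose pseudocount of 1 FPKM shrinks the differences of low genes. The members' median log2 ratio was 0.007, with 27 above 0 and 26 below, beside -0.019 over all expressed genes.

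Most members are abundant, so they were also set beside genes of at least 10 FPKM. Among the 4145 genes at that level in either library, the 1.5-fold rule was passed by 2.05% upward and 2.80% downward, and 0 of 45 members in this range were either. For 1.2-fold these shares were 11.4% higher and 12.1% lower, with 0 and 2 of the 45 members. The members at this level had an SD of 0.117 in log2 ratio and the 4145 genes one of 0.305. Within 1.1-fold lay 34 of the 45 members (75.6%) and 50.1% of the 4145 genes.

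**Figure D1:**
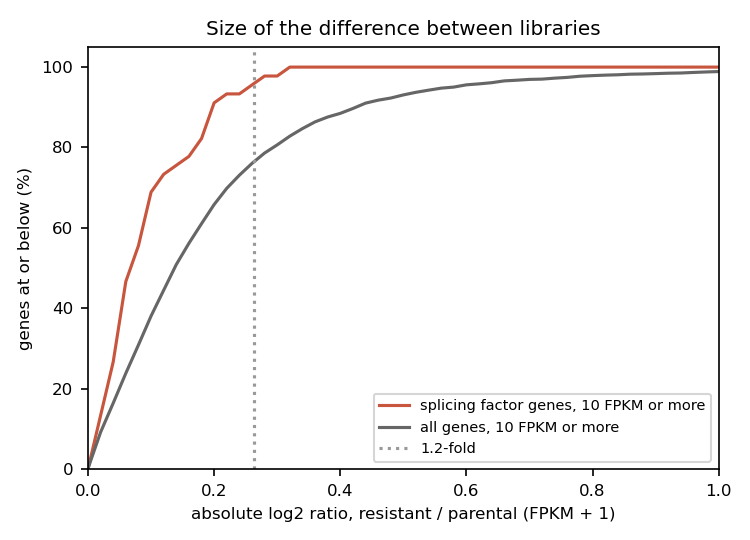
Cumulative share of genes (vertical axis, %) by the absolute log2 ratio between the 2 libraries (horizontal axis, FPKM + 1), for the 45 splicing factor genes and all 4145 genes of at least 10 FPKM. The splicing factor curve reaches 95.56% at 0.26, just short of the dotted 1.2-fold line, and the curve of all genes 76.04%.

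Summed over the 56 members, the level was 3054 FPKM in parental and 3036 in resistant cells. Their counts were 2.05% and 2.01% of the library, a fold of 0.980 (95% counting interval 0.978 to 0.983). Folds with intervals here and below divide each gene's share of the resistant library's counts by its share of the parental, with no pseudocount, and the Clopper-Pearson intervals cover counting error only, treating read pairs as independent molecules. At this depth small differences exceed counting error: the interval excluded 1 for 41 of 53 expressed members (77.4%), and for 72.8% of all expressed genes. An interval that excludes 1 therefore says little about the conditions, since the spread between cultures is not known.

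**Figure D2:**
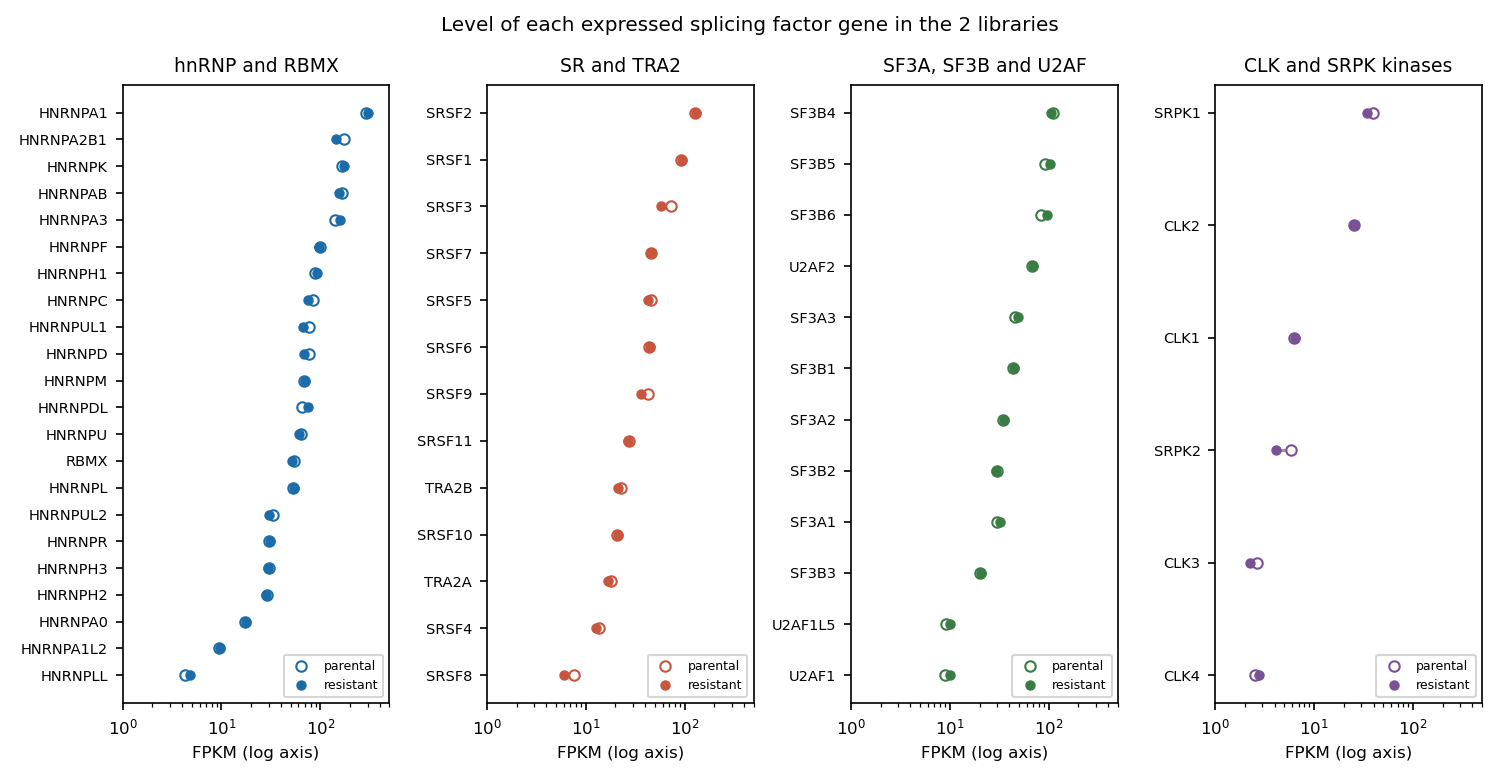
FPKM (horizontal, log axis) of the 53 expressed members in the parental (open circle) and resistant library (filled circle), in 4 groups ordered by parental level. Most circles overlap. SRPK2, SRSF3, SRSF8 and HNRNPA2B1, the members past the 1.2-fold rule, show gaps with the resistant library lower. SRSF9, at a log2 ratio of -0.24, has a gap close to that of HNRNPA2B1 at -0.26.

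The hnRNP A/B genes held the most abundant member, and their log2 ratios ran from -0.26 to 0.16. HNRNPA1, which represses exons and shuttles between nucleus and cytoplasm, was the highest member at 288 FPKM in parental and 306 in resistant cells, a fold of 1.064 (1.055 to 1.073). HNRNPA2B1, its close relative and a reader of RNA sorting signals, was at 175 and 145 FPKM, a fold of 0.834 (0.827 to 0.842). By FPKM the ratio of HNRNPA1 to HNRNPA2B1 was thus 1.65 in parental and 2.11 in resistant cells. By counts, not scaled to length, HNRNPA1 had 97945 and HNRNPA2B1 107838 in parental cells, and 105741 and 91299 in resistant cells. HNRNPA2B1 (chromosome 7, 26173057 to 26201529, GRCh38) lay on the 1.2-fold boundary: it met the rule on the FPKM + 1 scale and missed it by counts.

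HNRNPA3 went the other way from HNRNPA2B1, at 141 FPKM in parental and 157 in resistant cells (fold 1.12, 1.11 to 1.13). HNRNPAB stood at 164 and 156 FPKM and HNRNPA0 at 17.5 and 17.8. The copy HNRNPA1L2 was listed at 9.41 and 9.68 FPKM, from 861 and 902 counts, and overlaps an unnamed gene on the same strand with 393 and 218 counts. With that gene added its fold was 0.880 (0.811 to 0.955), against 1.032 (0.939 to 1.135) alone, so the direction turned. Over all 6 genes of this family the summed level was 794 FPKM in parental and 791 in resistant cells, so the members differed in opposite directions while the total was nearly level.

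HNRNPD and HNRNPDL, neighbours on chromosome 4 that bind AU-rich elements, also differed in opposite directions. HNRNPD (82352498 to 82374503) was at 76.1 FPKM in parental and 68.0 in resistant cells, a fold of 0.896 (0.883 to 0.910). HNRNPDL (82422564 to 82430408) was at 65.3 and 74.6 FPKM, a fold of 1.15 (1.13 to 1.17), the highest log2 ratio of any hnRNP gene at 0.19. By FPKM, HNRNPD was the higher of the pair in the parental library and HNRNPDL in the resistant library, with ratios of 1.17 and 0.911. By counts, not scaled to length, HNRNPD was higher in both libraries: 35406 against 23839 in parental and 32190 against 27718 in resistant cells. The order of the pair thus rests on the lengths used, which are not given in the sources used here. Around both genes, the median log2 ratio of the 20 closest expressed genes was 0.02.

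HNRNPC, which binds uridine tracts and packages nascent transcripts, was at 84.2 FPKM in parental and 74.2 in resistant cells (fold 0.884, 0.871 to 0.896), and the 20 expressed genes nearest to it had a median of -0.16. The 3 genes of the U group, large scaffold-like nuclear proteins, were all lower in resistant cells: HNRNPUL1 at 76.4 and 66.3 FPKM, HNRNPU at 63.9 and 60.2, and HNRNPUL2 at 32.9 and 30.5. HNRNPUL2 shares sequence with HNRNPUL2-BSCL2, which had 470 parental and 1019 resistant counts. The fold of HNRNPUL2 was 0.929 (0.905 to 0.954) alone and 0.975 (0.951 to 1) with the read-through gene added, so its difference from 1 was smaller over the locus than over the gene.

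The F/H genes, which bind runs of guanosines, lay close to 0. HNRNPF was at 98.6 FPKM in parental and 97.6 in resistant cells, HNRNPH2 at 28.9 and 28.4, and HNRNPH3 at 29.9 in both. HNRNPH1 was at 87.8 and 91.7 FPKM, and the log2 ratios of the 4 genes ran from -0.03 to 0.06.

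Of the remaining hnRNP genes, HNRNPK, which binds cytidine-rich RNA, was at 167 FPKM in parental and 173 in resistant cells. HNRNPL, a regulator of CA-rich exons, was at 52.6 and 54.7, and its relative HNRNPLL, known for CD45 splicing in lymphocytes, at 4.30 and 4.83. HNRNPM was at 68.3 and 70.3, HNRNPR at 30.4 and 30.8, and RBMX, also called hnRNP G, at 54.6 and 52.1. All 6 were within 1.2-fold, and the 21 hnRNP genes (without RBMX) together had a median log2 ratio of 0.019, with 11 above 0 and 10 below.

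The lowest SR genes relative to the parental library were SRSF3, SRSF8 and SRSF9. SRSF3, the smallest classical SR protein and a factor in mRNA export and polyadenylation site choice, was at 72.8 FPKM in parental and 58.4 in resistant cells, a fold of 0.805 (0.792 to 0.818). SRSF8, an expressed retrocopy related to SRSF2, was at 7.58 and 6.07 FPKM (fold 0.803, 0.752 to 0.857). SRSF9, a relative of SRSF1, was at 42.7 and 35.9 FPKM (0.843, 0.819 to 0.867), with a log2 ratio of -0.24, just under the 1.2-fold rule at 0.26. Of the 11 expressed SR genes 7 were below 0 and 4 above, with a median of -0.045, where 6065 of the 11388 expressed genes were below 0; SRSF7, at -0.03, was above 0 with TMM (trimmed mean of M values) scaling of counts.

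SRSF1, SRSF2, SRSF5, SRSF6 and SRSF7 were within 1.1-fold. SRSF2 stood at 127 FPKM in parental and 130 in resistant cells, and SRSF1, the founding member of the family, at 92.0 and 93.3. An unnamed gene that overlaps SRSF1 on the same strand had 697 parental and 315 resistant counts, and with it added the fold of SRSF1 was 1.006 (0.992 to 1.021) in place of 1.017 (1.003 to 1.032). SRSF5 stood at 45.7 and 42.5, SRSF6 at 43.5 and 45.1, and SRSF7 at 46.2 and 45.4.

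SRSF11 stood at 27.6 FPKM in parental and 26.7 in resistant cells, SRSF10, a splicing repressor once dephosphorylated, at 20.9 and 21.0, and SRSF4 at 13.5 and 12.7. SRSF12 was under the 1 FPKM filter at 0.02 and 0.04, from 8 and 12 counts. TRA2A and TRA2B, SR-like activators that bind GAA-rich exons, were each slightly lower in resistant cells, at 18.0 and 17.0 FPKM and at 22.9 and 21.3. Summed over the 12 SR genes the level was 540 FPKM in parental and 518 in resistant cells, a fold of counts of 0.953 (0.947 to 0.959).

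Of the SF3A and SF3B genes 7 of 9 were above 0, as were the 3 expressed U2AF genes. U2AF1 and U2AF1L5, which share most of their sequence, enter this and all other counts of members as 2 genes, though they are not independent. The 3 SF3A genes were all above 0: SF3A1 at 30.0 FPKM in parental and 32.2 in resistant cells, SF3A2 at 34.7 and 35.2, and SF3A3 at 45.8 and 48.8. SF3B1, which clamps the branch point duplex, was at 43.4 and 44.7, a fold of 1.03 (1.02 to 1.05). Among the SF3B genes the highest folds were those of SF3B5 and SF3B6. SF3B5 was at 90.7 and 104 FPKM (1.145, 1.098 to 1.193). SF3B6, which contacts the branch point adenosine, was at 84.5 and 95.3 (1.13, 1.09 to 1.17). The 20 expressed genes closest to SF3B5 had a median of 0.21, beside its own log2 ratio of 0.19, and those closest to SF3B6 one of -0.04, beside 0.17.

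SF3B2, SF3B3 and SF3B4, the other SF3B genes among the members, were within 1.1-fold. They stood at 30.07 and 28.98, at 20.4 and 20.8, and at 110 and 106 FPKM. U2AF2, the large subunit that binds the polypyrimidine tract, was at 67.6 and 69.7. U2AF1, the small subunit that reads the AG at the intron end, was listed at 8.95 and 9.95 FPKM and its copy U2AF1L5 at 9.10 and 10.1. Since the coding sequences shown above are identical, only the sum of the pair is read here: 18.05 FPKM in parental and 20.03 in resistant cells, a fold of 1.11 (1.09 to 1.14). U2AF1L4, a shorter relative, was at 0.83 and 0.96 FPKM and under the filter. Over the 9 SF3A and SF3B genes the summed level was 490 and 515 FPKM, a fold of 1.03 (1.02 to 1.04).

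**Figure D3:**
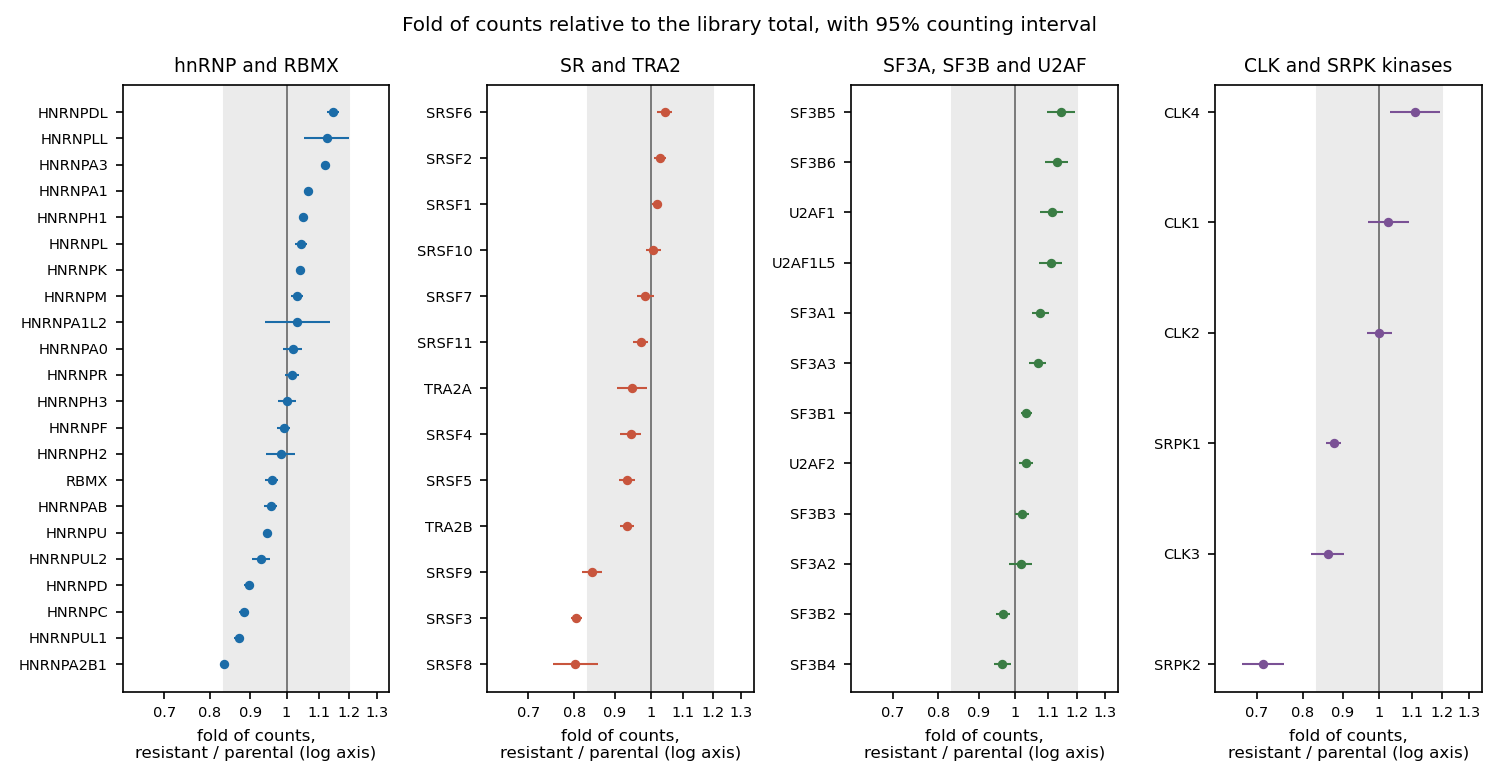
Fold of each gene's share of counts, resistant over parental (horizontal, log axis), with 95% counting intervals for the 53 expressed members; the grey band spans 1.2-fold either way. SRPK2, SRSF3 and SRSF8 lie to the left of the band, HNRNPA2B1 lies at its left edge, and no gene lies to the right.

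Among the kinases, SRPK2 had the lowest log2 ratio of all members. SRPK2 (chromosome 7, 105110704 to 105388898), a cytoplasmic SR protein kinase, was at 5.85 FPKM in parental and 4.17 in resistant cells. With 2488 and 1802 counts, its fold was 0.714 (0.671 to 0.759) and its log2 ratio -0.41. SRPK1, the more abundant SR protein kinase that licenses nuclear import, was lower too, at 39.3 and 34.3 FPKM (0.876, 0.858 to 0.896). SRPK3, known from muscle, was at 0.28 and 0.40 FPKM and under the filter. Summed over the 3 genes the level was 45.4 and 38.9 FPKM, a fold of 0.859 (0.842 to 0.876). The 20 expressed genes nearest to SRPK2 had a median of 0.02 and those nearest to SRPK1 one of -0.14.

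The CLK kinases, which act on SR proteins inside the nucleus, had no common direction. CLK2, the most abundant, was at 25.2 FPKM in both libraries, and CLK1 was at 6.23 and 6.38. CLK3 was at 2.64 in parental and 2.27 in resistant cells (0.861, 0.820 to 0.903), and CLK4 at 2.53 and 2.81 (1.111, 1.031 to 1.196). The summed CLK level was 36.6 FPKM in both libraries (fold of counts 0.978, 0.955 to 1.002).

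Ratios within a library do not depend on how libraries are scaled, and 14 pairs of related or opposing members were compared this way. In 6 of them the ratio differed by at least 1.2-fold between libraries; the share among pairs of other genes was not computed, and intervals are normal approximations. Besides HNRNPA1 to HNRNPA2B1 and HNRNPD to HNRNPDL, these were SRSF1 to SRSF9 (2.16 parental, 2.60 resistant), SRSF3 to SRSF7 (1.57 and 1.29), SRPK1 to SRPK2 (6.71 and 8.23) and CLK4 to CLK3 (0.958 and 1.24). These are ratios of FPKM, so which gene of a pair is higher depends on the lengths used, and the change between libraries does not. CLK3 had more counts than CLK4 in both libraries (3606 and 1344 in parental, 3150 and 1515 in resistant cells). SRSF1 to HNRNPA1, a classic pair with opposing effects on 5' splice sites, was at 0.319 and 0.305, a change of 0.956 (0.940 to 0.973). TRA2A to TRA2B (0.786 and 0.797) and CLK1 to CLK2 (0.247 and 0.253) differed least, by 1.015 (0.968 to 1.064) and 1.026 (0.958 to 1.099).

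Processed pseudogenes of the hnRNP genes took a small share of counts and did not always follow their gene. The table held 60 pseudogene rows named after 14 members, 11 of them at 1 FPKM or more. HNRNPA1 had 27, with HNRNPA1P7 at 26.6 FPKM in parental and 30.3 in resistant cells, and their sum came to 4.15% of its own counts. The summed pseudogene rows had a fold of 1.11 (1.06 to 1.15) for HNRNPA1 and 0.855 (0.776 to 0.942) for HNRNPC, near the folds of these genes. For HNRNPA3 they had 0.980 (0.904 to 1.06) against 1.12 for the gene, and for HNRNPL 0.871 (0.764 to 0.992) against 1.04. How the authors placed reads that map to several sites is not given in the sources used here.

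**Figure D4:**
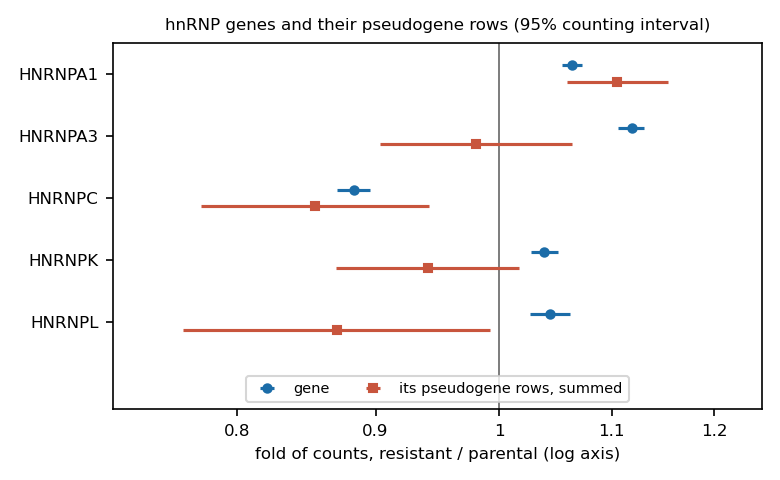
Fold of counts, resistant over parental (horizontal, log axis), with 95% counting intervals for 5 hnRNP genes (circles) and the sum of the pseudogene rows named after each (squares). Gene and pseudogene rows lie on the same side of 1 for HNRNPA1 and HNRNPC and on opposite sides for HNRNPA3, HNRNPK and HNRNPL.

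SR and hnRNP genes are known to regulate their own mRNAs through poison exons and retained introns, and annotated transcripts of these kinds were counted among the members. In the table, 36 of 53 expressed members (67.9%) listed a transcript of the nonsense-mediated decay type, against 39.8% of 10289 expressed protein-coding genes. A retained-intron transcript was listed for 40 of 53 (75.5%), against 58.8%. These are counts of annotated types, not of transcripts measured in these cells.

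Some members start beside an expressed coding gene on the other strand, and the direction of these neighbours was set beside that of the member. Of the 53, 12 had an expressed coding gene on the opposite strand starting within 1000 bases, and 5 of these 12 pairs had log2 ratios of the same sign. Neither share was computed over all expressed genes, so these counts are not read as a trait of the members. CBX3, a heterochromatin protein gene that starts 367 bases from HNRNPA2B1, was at 47.6 FPKM in parental and 46.0 in resistant cells (0.969, 0.947 to 0.991), while HNRNPA2B1 was at 0.834. Its relative CBX5, 60 bases from HNRNPA1, was at 34.0 and 27.8 FPKM (0.818, 0.806 to 0.831), while HNRNPA1 was at 1.06. DYNLL1, a dynein light chain gene 102 bases from SRSF9, was at 45.7 and 44.4 (0.973, 0.945 to 1.003). The larger difference thus lay at the splicing factor for HNRNPA2B1 and SRSF9, and at the neighbour for HNRNPA1.

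The promoters of the members at least 1.2-fold lower are shown because these 4 are the members past that rule. The lines give the bases just upstream of the start (RefSeq, GRCh38.p14) of 3 of the 4, outside the gene's span in the table; the window of HNRNPA2B1 lies inside that span and is not printed. Only 1 RefSeq start per gene was used. The windows of SRPK2 and SRSF8 do not adjoin the gene's span in the table. That span ends at 105388898 for SRPK2 and starts at 95067197 for SRSF8. Capitals mark CCAAT (or its complement ATTGG) and TATAAA.

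SRSF3 (chr6:36594212-36594352, plus strand): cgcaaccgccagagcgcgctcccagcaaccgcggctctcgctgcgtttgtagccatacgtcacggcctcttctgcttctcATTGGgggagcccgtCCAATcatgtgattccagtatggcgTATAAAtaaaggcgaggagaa

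SRSF8 (chr11:95066727-95066876, plus strand): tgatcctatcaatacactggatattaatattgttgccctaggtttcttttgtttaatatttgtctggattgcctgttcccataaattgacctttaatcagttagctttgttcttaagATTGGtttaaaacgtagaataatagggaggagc

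SRPK2 (chr7:105389392-105389541, minus strand): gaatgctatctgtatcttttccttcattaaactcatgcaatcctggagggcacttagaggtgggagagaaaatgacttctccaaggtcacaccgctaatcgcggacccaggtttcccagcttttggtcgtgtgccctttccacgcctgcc

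SRSF3 held 2 CCAAT matches and a TATAAA, SRSF8 a single CCAAT, and SRPK2 none of the 9 motifs searched. RefSeq promoter windows, from 250 bases before to 50 after the start, matched 48 expressed members, and motifs were searched on both strands. CCAAT was in 37.5% of the members' windows, against 37.0% of 8423 windows of expressed coding genes and 35.7% of all 27305. The GC box GGGCGG was in 68.8% (71.3% and 44.6%), and the longer GGGGCGGGG, which contains it, in 27.1% (28.3% and 16.0%). The ETS motif CCGGAAGT was in 20.8% (10.2% and 4.44%) and the E-box CACGTG in 20.8% (10.5% and 7.43%), in 10 of 48 members each. TATAAA was in 12.5% (5.22% and 12%), GCATGCGC in 6.25% (5.92% and 3.27%), TCTCGCGA in 4.17% (2.77% and 1.19%), and TGACGTCA in 0 members (3.41% and 1.98%). The matches describe these letters only.

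Other parts of the splicing machinery, taken from 8 lists, were also mostly within 1.2-fold, with the minor spliceosome as the list that held genes past 1.5-fold. Of 10 expressed minor spliceosome genes, which serve the rare U12-type introns, 3 were at least 1.2-fold higher, 0 lower, and the median log2 ratio was 0.168. ZCRB1, a U11/U12 protein whose gene overlaps 1 other on its strand, was at 10.3 FPKM in parental and 20.9 in resistant cells, a fold of 2.03 (1.91 to 2.15). ZMAT5, another U11/U12 protein, was at 1.9 and 3.41 FPKM (1.81, 1.60 to 2.04), and SNRNP48, the lowest of the list, at 2.77 and 2.39.

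The core snRNP proteins were even: of 13 U1, U2 and Sm genes 1 was at least 1.2-fold higher and 0 lower, from SNRPG at 66.4 and 59.0 FPKM to SNRPN, which has overlapping genes on its strand, at 11.4 and 14.5. Of all expressed genes 5277 of 11388 were above 0. Of 23 tri-snRNP genes 15 were above 0 and 1 was 1.2-fold higher, with TXNL4A at 10.1 and 12.4 and the GTPase EFTUD2 at 23.8 and 20.9. Of 22 genes of the Prp19 complex and the catalytic steps 15 were above 0 and 2 were 1.2-fold higher, with PLRG1, which has such an overlap, at 11.8 and 14.8 and SYF2 at 7.03 and 6.

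Among 15 U2-associated genes, 0 were 1.2-fold higher and 1 was lower. This was DHX15, a helicase of spliceosome disassembly that also overlaps 1 gene on its strand, at 36.8 FPKM in parental and 24.5 in resistant cells (0.668, 0.653 to 0.683). DHX15 lies on chromosome 4 from 24517441 to 24584537, where the median over its 20 closest expressed genes was -0.53, beside its own log2 ratio of -0.57. HTATSF1 was the highest of this list at 29.7 and 33.3.

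The exon junction complex had members on both sides: the anchor helicase EIF4A3 was at 23.5 FPKM in parental and 19.0 in resistant cells, and its partner RBM8A, which overlaps another gene on its strand, at 34.4 and 44.3, with 12 of 18 genes of this list above 0, 1 at least 1.2-fold higher and 1 lower. Of 35 other splicing regulators 1 was at least 1.2-fold higher and 2 lower, with TAF15, which overlaps other genes on its strand, at 27.7 and 37.6 and CELF1, which also has one, at 13.5 and 10.9. The enzymes and import receptors that act on SR and hnRNP proteins had 13 of 14 below 0, 1 of them by at least 1.2-fold, and a median of -0.103. Over all expressed genes 6065 of 11388 were below 0, 17.0% were at least 1.2-fold lower, and the median was -0.019. PPP1R8 and PPIG were near 0, at -0.01 each. The arginine methyltransferase CARM1 was at 16.3 and 13.2, and WDR77, the partner of PRMT5 and also overlapped, was the exception at 31.4 and 37.0.

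**Figure D5:**
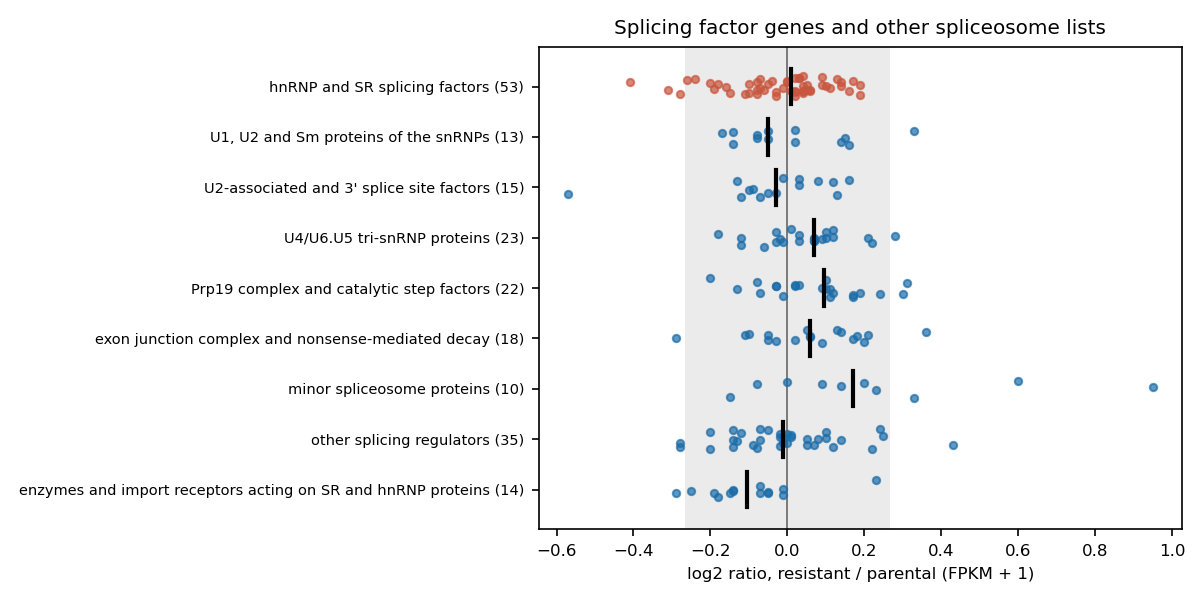
Log2 ratio, resistant over parental (horizontal, FPKM + 1), of each expressed gene (point) in the splicing factor set and 8 other spliceosome lists, with the number of genes in brackets, the median as a black bar and 1.2-fold either way in grey. The points past 0.58, the 1.5-fold rule, are ZMAT5 and ZCRB1 of the minor spliceosome list; DHX15 lies at -0.57.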

How the data were processed

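Poly(A) RNA of 1 parental and 1 resistant THP-1 library was read from a deposited table of FPKM values and raw counts per Ensembl gene. The authors deposited FPKM, normalised to transcript length and library size, and counts that were not normalised. The lengths used are not given in the sources used here. The order of genes by FPKM within a library rests on them, while a gene's own ratio between libraries does not. The build GRCh38 and the tools HISAT2 2.0.4, edgeR, StringTie 1.3.4d, cutadapt 1.9 and DESeq2 are named, per the submitters' processing notes, without role or order; annotation release, strand setting and multi-mapping are not given in the sources used here. Libraries were dUTP-stranded and paired, per the labels' protocols. The resistant count column has a suffix the labels do not explain; over 6033 genes its log2 ratios differed from those of FPKM by -0.004 (SD 0.000854). Rows with clone names in place of symbols (7976 of 30856, 1.00% and 1.02% of counts) were not counted as expressed genes. They entered library totals, the search for overlapping genes and the sums of a member with an overlapping gene.

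No test was possible with 1 library per group. Expressed means 1 FPKM in either library. All members are named, and of each other list the highest, the lowest and any gene 1.5-fold apart. SPI1, CEBPA, CD14, CBX3, CBX5 and DYNLL1, and the comparison with genes of 10 FPKM, were chosen after values were seen. Members and lists were chosen with earlier results of these data known. The functions were tested on simulated data. Software was scipy 1.17.1, pandas 2.3.3, numpy 2.4.6 and matplotlib 3.10.9 under Python 3.11.15.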

Additional observations from a re-analysis of the deposited data

How the results depend on the processing

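The pseudocount, the 1 FPKM filter, the centring and the members with copies were varied one at a time, while the 3 settings on counts replaced FPKM and also dropped the pseudocount. The counts of 0 members at 1.5-fold in either direction and 0 at 1.2-fold higher stood under all 9 alternatives. The 4 members at least 1.2-fold lower were 1 with a pseudocount of 5 FPKM (SRSF3) and 2 with log2 ratios centred on the median of all expressed genes (SRPK2 and SRSF3). On counts they were 3, without HNRNPA2B1, whose log2 ratio of -0.26 lies at the rule. The median log2 ratio of the members, 0.007, was 0.040 with trimmed mean of M values (TMM) scaling of counts and reversed to -0.035 over the 34 expressed members left without those with an expressed pseudogene, a near-identical gene or an overlapping gene on the same strand. Some members left out overlap a gene with almost no counts, such as SRSF2 with MIR636 (1 parental and 0 resistant) and SF3B3 with SNORD111 (3 and 0). The set left out is therefore wider than the members with shared reads. The cause of the shifts in the median was not tested, beyond the change of members or scaling itself. The summed level, 0.994 of the parental by FPKM, was 0.980 by counts relative to the library total, 1.000 with TMM scaling and 0.969 without members with copies or overlaps. TMM scaling changed the sign of 4 and median-of-ratios scaling that of 3 of the 53 single log2 ratios, with HNRNPF among both, and no member at least 1.2-fold apart changed sign. No paired analysis was possible because each group has 1 library. Genes of few FPKM, such as CLK3 and CLK4, are shrunk most by the pseudocount. With 1 library per group the spread between cultures is unknown, and counting intervals were widest for the 3 members under 1 FPKM.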
